A study of Mus musculus with 8 samples.

Results

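The genes described here encode the RNA polymerase II machinery outside the polymerase stalk. They are 60 named genes: 11 subunits of the polymerase or its direct inhibitor, 8 genes of TFIID, 7 of TFIIA, TFIIB, TFIIE and TFIIF, 8 of TFIIH, 13 pausing and elongation factors and 13 Mediator genes. They were chosen by name from textbook complexes and not by a measured value, though with earlier results of these data known. Of the 60, 59 were found among the 20894 genes of the table, Supt4a was not analysed here, and 50 had enough counts to be tested. The samples are livers of wild-type mice, fasted in the daytime, that carried either AAV8-TBG-POLR2G or the control AAV8-TBG-GFP, where GFP is green fluorescent protein. AAV8 is a virus serotype that reaches the liver well, and TBG is a promoter used mainly by hepatocytes. Both groups therefore share the serotype, the promoter and the fast, and the labels give no age. Each group had 4 libraries. The table held 14159056 to 22165491 estimated counts per library. The column of 1 POLR2G library has a number that the labels do not list, and it is called the unnumbered POLR2G library. Since libraries are not matched to single animals in the labels, the tests rest on the spread among libraries, which may be technical.

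RNA polymerase II transcribes the protein-coding genes of the nucleus. TFIID finds the promoter through the TATA-binding protein and its associated factors, TFIIA, TFIIB, TFIIE and TFIIF place the polymerase at the start site, and TFIIH opens the DNA and phosphorylates the polymerase tail. Mediator carries signals from enhancer-bound factors to this complex, while NELF and DSIF hold the polymerase shortly after the start until P-TEFb releases it. POLR2G, also known as RPB7, pairs with POLR2D (RPB4) to form a stalk that can come off the core enzyme. The comparison addresses whether the transcripts of the remaining machinery differ when livers carry the POLR2G vector.

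Polr2g checked the labels first. It had 213 to 258 counts per control and 38649 to 54553 with the POLR2G vector, so each library matched its group, the unnumbered one included. Its log2 fold change of 7.46 (SE 0.102, edgeR adjusted p = 3.23e-10) is a change in RNA counted on this gene. The amount of POLR2G protein is not measured in these data. Polr2d, the stalk partner, measured 5.16 ± 0.395 CPM (counts relative to library size, after TMM scaling, SD over n = 4 libraries) in the controls and 4.29 ± 0.499 CPM with POLR2G. That is a log2 fold change of −0.27 (SE 0.170) with an edgeR adjusted p of 0.751.

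None of the 50 tested genes of the machinery changed (edgeR adjusted p under 0.05 over all genes), neither up nor down. Over all 10390 genes tested that rule called 4 genes, 0.0385%, with 0.0192% higher and 0.0192% lower. The member nearest to it was Polr2l, 1.36-fold higher, with an edgeR adjusted p of 0.103. At an unadjusted p under 0.05 edgeR gave 5 of the 50 (10%), where all genes gave 8.3%. They were Polr2l, Polr2b and Ercc3 with a higher mean (all genes higher, 4.2%) and Gtf2e1 and Taf5 with a lower one (all genes lower, 4.1%). This share is near the background and is no result about the machinery as a whole. Among the 42 members for which DESeq2 gave an adjusted p it called 1, Polr2l (adjusted p = 4.32e-05), while it called 1.8% of all genes. The limma-voom fit called 0 members and 0.0289% of all genes. Both tools also gave 5 members at an unadjusted p under 0.05, where all genes gave 8.68% with DESeq2 and 8.95% with limma-voom.

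The groups did not overlap for 5 of the 50 members (10%), against 5.51% of all genes tested. Polr2l and Polr2b lay higher in every POLR2G library (all genes, 2.83%), and Gtf2e1, Taf5 and Med10 lay lower (all genes, 2.68%). The median log2 fold change was −0.013 over the 50 members and −0.0031 over all genes tested. A higher mean was seen in 23 members and a lower one in 27, where all genes tested gave 5124 and 5266. The median size of the log2 fold change, without its sign, was 0.131 in the members and 0.139 in all genes. Summed over the 59 genes, the level was 786 to 918 CPM in the controls and 828 to 867 CPM with POLR2G, and these ranges overlap.

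**Figure D1:**
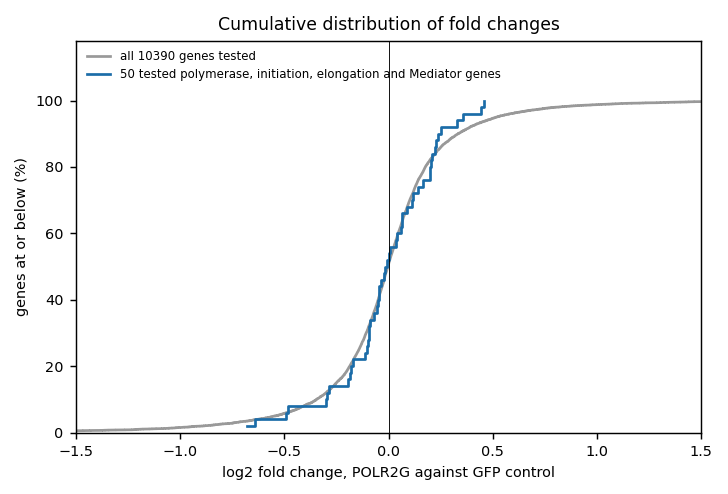
Cumulative share of genes (y axis, percent) at or below each log2 fold change of POLR2G against GFP control (x axis), for all 10390 genes tested (grey) and the 50 tested members (blue). Both curves cross 0 near their middle, with medians of −0.0031 and −0.013.

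The intervals show which changes these libraries could have missed. For 30 of the 50 members (60%) the 95% interval of the fold lay wholly inside a 1.5-fold change in either direction. All genes tested gave 51.7%. The median interval reached 0.36 to either side of the estimate on the log2 scale, against 0.40 for all genes. All 6 tested genes of TFIIA, TFIIB, TFIIE and TFIIF lay inside that range, as did 6 of 9 core subunits, 8 of 11 pausing and elongation factors, 4 of 8 TFIID genes, 5 of 10 Mediator genes and 1 of 6 TFIIH genes. For the other 20 members a 1.5-fold change in at least 1 direction was not excluded, so no statement of stability can be made for them. The intervals are for single genes and are not adjusted for their number.

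**Figure D2:**
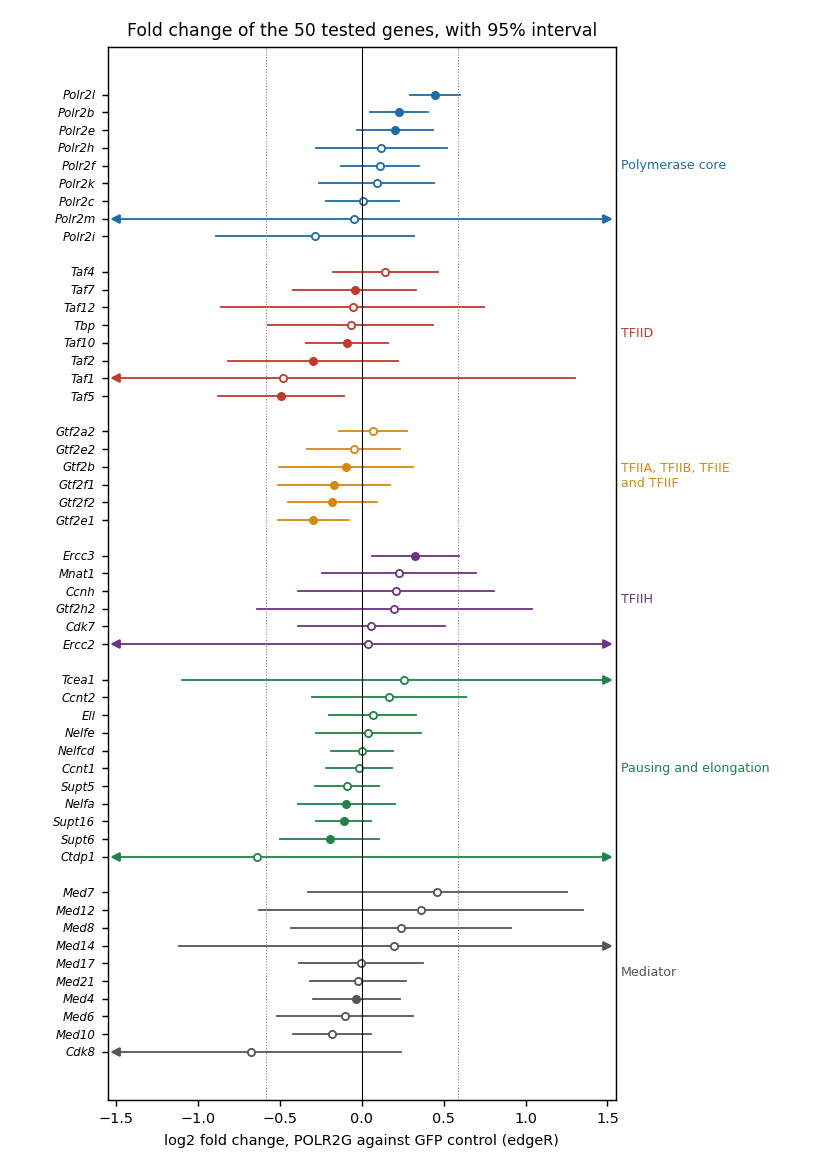
Log2 fold change of POLR2G against GFP control (x axis) for the 50 tested genes, grouped and coloured by role, with the 95% interval from edgeR as a line and arrowheads where it leaves the plot. Filled points are genes with 1 annotated coding transcript, open points genes with several, and dotted lines mark a 1.5-fold change. Of the 50 intervals, 5 leave out 0 and 30 stay between the dotted lines.

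Upstream sequences are given for Polr2l, Gtf2e1 and Taf5, which had groups apart, an unadjusted p under 0.05 and an upstream stretch free of annotated exons (RefSeq, GRCm38.p6, 5′ to 3′ on the gene's strand). They end at the start site, or at the last base before an annotated exon. Capitals mark matches, on either strand, to CCGCCC, the core of a GC box, and to CCAAT, the core of a CCAAT box. The Polr2l sequence lies at chr7:141475154-141475239, minus strand, that of Gtf2e1 at chr16:37539790-37539884, minus strand, and that of Taf5 at chr19:47067628-47067745, plus strand.
Polr2l: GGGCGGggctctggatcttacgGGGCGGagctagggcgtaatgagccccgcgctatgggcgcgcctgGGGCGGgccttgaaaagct
Gtf2e1: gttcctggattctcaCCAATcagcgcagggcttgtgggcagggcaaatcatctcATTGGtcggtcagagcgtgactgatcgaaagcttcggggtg
Taf5: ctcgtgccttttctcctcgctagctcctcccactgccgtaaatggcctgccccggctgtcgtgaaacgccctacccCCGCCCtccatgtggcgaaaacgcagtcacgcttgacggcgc
The Polr2l stretch held 3 matches to CCGCCC and 0 to CCAAT, the Gtf2e1 stretch 0 and 2, and the Taf5 stretch 1 and 0. None of the 3 held TATAAA, the letters of a TATA box. Over the 250 bases before the start, TATAAA was found in 6 of the 46 members with a RefSeq promoter (13%) and in 8.87% of the genes tested across the table. CCGCCC was found in 69.6% of these members and 61.6% of the genes tested, and CCAAT in 39.1% and 40.9%. CCGGAAG, the core bound by ETS factors, was found in 14 of the 46 members (30.4%) and in 15.4% of the genes tested. These motifs were picked after the values were seen, the letter matches may overlap each other, and no binding was measured. Polr2b is left out because its upstream bases lie in an annotated exon of its own, and Med10 because its unadjusted p was 0.116.

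Among the core subunits, Polr2l encodes a small subunit shared by RNA polymerases I, II and III (ENSMUSG00000038489; GRCm38 chromosome 7, 141471860 to 141475132, minus strand). It measured 34.2, 33.5, 31.2 and 31.5 CPM in GFP libraries 1 to 4. In POLR2G livers it stood at 45.4 CPM in library 1, 44.6 in the unnumbered library, 41.2 in library 3 and 46.4 in library 4. The lowest POLR2G library stood above the highest control library, and both groups were tight. The means were 32.6 ± 1.46 and 44.4 ± 2.28 CPM (SD, n = 4), a log2 fold change of 0.45 (SE 0.0685, 95% interval 0.29 to 0.60, unadjusted p = 9.27e-05, edgeR adjusted p = 0.103). In 8 fits that each left out 1 library the log2 fold change stayed between 0.42 and 0.48. When only the 2973 tested genes with 1 annotated coding transcript were fitted, 3 passed, and the edgeR adjusted p of Polr2l was 0.0354. In the annotation 3 other genes hold stretches at least 95% identical to its transcript over at least 200 bases, 1 of which has a row in the table, with at most 1 count in a library.

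Polr2b encodes the second-largest subunit, which forms the active centre together with the largest (ENSMUSG00000029250; chromosome 5, 77310147 to 77349324, plus strand). It measured 70.4, 57.7, 64.3 and 68.1 CPM in GFP libraries 1 to 4. In POLR2G livers it stood at 71.7 CPM in library 1, 77.6 in the unnumbered library, 81.0 in library 3 and 74.2 in library 4. The groups did not overlap, but GFP library 1 and POLR2G library 1 were nearly level. The means were 65.1 ± 5.53 and 76.1 ± 4.05 CPM, a log2 fold change of 0.22 (SE 0.0787, 95% interval 0.048 to 0.40, edgeR adjusted p = 0.477). It shares 85 exonic bases with Igfbp7 on the other strand, and whether the counting used strand is not given in the sources used here. Its unadjusted p was 0.0526 without POLR2G library 3.

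Polr2e, Polr2f, Polr2h and Polr2k encode the other subunits that RNA polymerases I, II and III share. With Polr2l, all 5 had a higher mean with POLR2G, from 0.090 to 0.45 on the log2 scale, a grouping made after the values were seen. Polr2e measured 17.2 to 21.8 CPM in the controls and 20.5 to 24.2 CPM with POLR2G (log2 fold change 0.20, SE 0.103, edgeR adjusted p = 0.654). For the rest the log2 fold changes were 0.11 (Polr2f, SE 0.106), 0.12 (Polr2h, SE 0.179) and 0.090 (Polr2k, SE 0.157), and their groups overlapped. In fits that each left out 1 library they fell as low as 0.054 (Polr2f), −0.00998 (Polr2h) and −0.0097 (Polr2k). In the list of subunits of RNA polymerases I and III, 0 of 15 tested genes changed, where 0.0385% of all genes did. In that list 8 had a higher and 7 a lower mean (median log2 fold change 0.025). Its member with the smallest p was Twistnb (−0.16, SE 0.0877, edgeR adjusted p = 0.707).

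Polr2c, which with Polr2j starts the assembly of the core, measured 21.4 ± 2.44 CPM in the controls and 21.5 ± 1.16 CPM with POLR2G (log2 fold change 0.0058, SE 0.0990). Polr2i, a small subunit that helps in proofreading, had a lower mean (3.36 ± 0.875 and 2.76 ± 0.543 CPM, log2 fold change −0.29, SE 0.268). Over the 9 tested core genes 7 had a higher and 2 a lower mean (6 and 3 with scaling by totals), with a median log2 fold change of 0.11. Polr2a, which encodes the largest subunit with the repeated tail, is listed at 0 in all 8 libraries. Polr2j had 3 to 14 counts per library and was not tested.

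**Figure D3:**
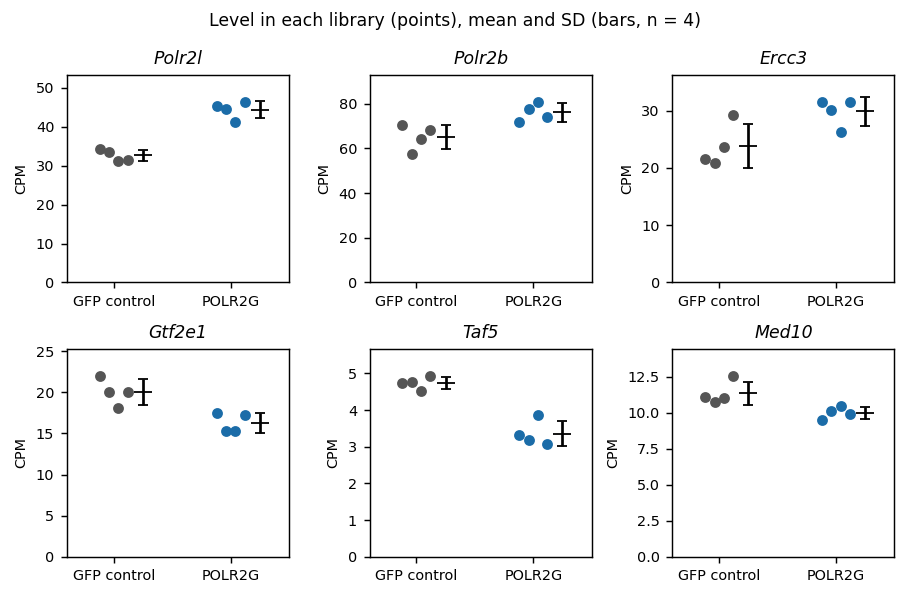
CPM (y axis, from 0) of 6 genes in each GFP control library (grey points) and POLR2G library (blue points), with mean and SD (bars, n = 4). The groups are apart for Polr2l, Polr2b, Gtf2e1, Taf5 and Med10, while for Ercc3 GFP library 4, at 29.3 CPM, lies among the POLR2G libraries.

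TFIID recognises the promoter. Of its 8 members listed here, 7 had a lower and 1 a higher mean, with a median log2 fold change of −0.079. In the separate list of other TFIID and TFIIH genes, 4 had a higher and 5 a lower mean. Taf5, a scaffold subunit of TFIID (ENSMUSG00000025049; chromosome 19, 47067746 to 47083479, plus strand), measured 4.75, 4.76, 4.51 and 4.93 CPM in GFP libraries 1 to 4. In POLR2G livers it stood at 3.33 CPM in library 1, 3.17 in the unnumbered library, 3.86 in library 3 and 3.08 in library 4. All POLR2G libraries lay below all control libraries, and the control values lay close together. The means were 4.74 ± 0.172 and 3.36 ± 0.351 CPM, 1.41-fold lower (log2 fold change −0.49, SE 0.172, 95% interval −0.88 to −0.11, edgeR adjusted p = 0.473). Only 53 to 91 counts per library stand behind these values. Taf5 shares 16 exonic bases with Usmg5 on the other strand.

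Taf10, a small histone-fold subunit, measured 16.9 ± 2.05 CPM in the controls and 15.9 ± 1.21 CPM with POLR2G (log2 fold change −0.089, SE 0.112). Taf7, an inhibitor of the TAF1 enzyme, measured 4.73 ± 0.295 and 4.59 ± 0.519 CPM (−0.044, SE 0.167). Tbp, the TATA-binding protein, measured 9.22 to 13.7 CPM in the controls and 6.71 to 14.4 CPM with POLR2G (−0.068, SE 0.224). The intervals of Taf10 and Taf7, as of Tbp, stayed within a 1.5-fold change. Taf4 had the 1 higher mean (0.14, SE 0.142) and Taf12 a lower one with a wide error (−0.057, SE 0.357). Taf2, which contacts promoter DNA near the start site, measured 52.7 CPM in GFP library 1 and 27.6 to 31.2 CPM in the other 3 control libraries, against 20.3 to 35.9 CPM with POLR2G (−0.30, SE 0.231). Without GFP library 1 its log2 fold change was −0.038.

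The factors that place the polymerase had a lower mean in 5 of 6 tested genes (6 of 6 with scaling by totals), with a median log2 fold change of −0.13. Gtf2e1, the large subunit of TFIIE, which recruits TFIIH (ENSMUSG00000022828; chromosome 16, 37509790 to 37539789, minus strand), measured 21.99, 20.07, 18.05 and 20.05 CPM in GFP libraries 1 to 4. In POLR2G livers it stood at 17.5 CPM in library 1, 15.3 in the unnumbered library, 15.3 in library 3 and 17.2 in library 4. The groups did not overlap, with GFP library 3 and POLR2G library 1 closest. The means were 20.04 ± 1.61 and 16.3 ± 1.21 CPM, 1.23-fold lower (log2 fold change −0.30, SE 0.0960, 95% interval −0.51 to −0.080, edgeR adjusted p = 0.437).

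Its partner Gtf2e2 measured 11.2 ± 0.935 and 10.8 ± 1.33 CPM, with a log2 fold change of −0.050 (SE 0.127). The TFIIF genes Gtf2f1 (−0.17, SE 0.152) and Gtf2f2 (−0.18, SE 0.122) and the TFIIB gene Gtf2b (−0.098, SE 0.181) had lower means with overlapping groups. GFP library 1 was the highest library for all 3, with 34.8 CPM for Gtf2f1, 10.7 for Gtf2f2 and 38.1 for Gtf2b. Without it the log2 fold changes were −0.029 for Gtf2f1, −0.13 for Gtf2f2 and 0.064 for Gtf2b. Gtf2a2, the small subunit of TFIIA, had the 1 higher mean (0.067, SE 0.0927). Gtf2a1, which encodes the other TFIIA subunits, is listed at 0 in 7 libraries and at 4 counts in POLR2G library 4.

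All 6 tested TFIIH members had a higher mean, with a median log2 fold change of 0.20. When libraries were scaled by their totals only, which puts the median of all genes at −0.079, it was 4 of 6. Outside the members, the TFIIH genes Gtf2h5 (−0.088, SE 0.0892) and Gtf2h3 (0.021, SE 0.245) had overlapping groups, Gtf2h5 with a lower mean. Ercc3, the XPB translocase that opens promoter DNA (ENSMUSG00000024382; chromosome 18, 32240300 to 32270151, plus strand), measured 21.5, 20.9, 23.6 and 29.3 CPM in GFP libraries 1 to 4. In POLR2G livers it stood at 31.5 CPM in library 1, 30.2 in the unnumbered library, 26.2 in library 3 and 31.6 in library 4. GFP library 4 stood above POLR2G library 3, so the groups overlapped. The means were 23.8 ± 3.82 and 29.9 ± 2.51 CPM, 1.25-fold higher (log2 fold change 0.33, SE 0.119, 95% interval 0.059 to 0.60, edgeR adjusted p = 0.494). When 1 library was left out, its unadjusted p stayed under 0.05 in 4 of 8 fits, missing it without GFP library 1 or 2 or POLR2G library 1 or 4.

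The kinase module of TFIIH phosphorylates the polymerase tail. Its kinase gene Cdk7 (0.058, SE 0.199), cyclin gene Ccnh (0.21, SE 0.265) and assembly factor gene Mnat1 (0.23, SE 0.210) had overlapping groups. Ccnh stood at 2.98 to 3.31 CPM in the controls, 2.45 to 3.40 CPM in 3 POLR2G libraries and 5.45 CPM in POLR2G library 1, without which its log2 fold change was −0.064. Gtf2h2, a core subunit, had 10 to 22 counts per library, too few for a narrow interval (log2 fold change 0.20, SE 0.374). Ercc2, the XPD helicase gene, ranged from 0 to 71 counts, with 0 in GFP library 1 (log2 fold change 0.038, SE 1.04). The sign turned in at least 1 alternative fit for Ercc2, Cdk7 and Ccnh, so the shared direction of the 6 is not firm. Gtf2h4 is listed at 0 in all libraries, and Gtf2h1 had 4 to 12 counts.

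Among pausing and elongation factors 0 of 11 tested genes had an unadjusted edgeR p under 0.05, where all genes gave 8.3%. With so few genes this count is no result about the class. Means were higher in 4 and lower in 7, with a median log2 fold change of −0.018, a split that depends on the scaling (2 and 9 by totals, 6 and 5 by upper quartiles). Supt5, the large subunit of the pausing and elongation factor DSIF, measured 61.0 ± 6.71 CPM in the controls and 57.2 ± 2.67 CPM with POLR2G (−0.093, SE 0.0871). The NELF genes Nelfa (−0.095, SE 0.131), Nelfcd (−2.0e-05, SE 0.0847) and Nelfe (0.038, SE 0.142) all had intervals within a 1.5-fold change. Nelfcd had the log2 fold change nearest to 0 among the 50, at 33.5 ± 2.40 and 33.5 ± 2.69 CPM.

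Ccnt1, the main cyclin of the release kinase P-TEFb, measured 38.7 ± 4.44 and 38.2 ± 1.54 CPM (−0.018, SE 0.0897). Its relative Ccnt2 was less precise (0.17, SE 0.209), and the kinase gene Cdk9 had 0 to 5 counts and was not tested. The histone chaperone genes Supt6 (−0.20, SE 0.134) and Supt16, a FACT subunit (−0.11, SE 0.0748), had lower means with overlapping groups. Supt6 measured 73.7 CPM in GFP library 1 and 43.7 to 55.2 CPM in the other 7 libraries, and its log2 fold change was −0.056 without that library. Ell, which speeds elongation, measured 49.6 CPM in POLR2G library 1 and 35.8 to 36.5 CPM in the other 3 POLR2G libraries, with 35.2 to 41.9 CPM in the controls (0.065, SE 0.119, and −0.065 without POLR2G library 1). Tcea1, which rescues a backtracked polymerase, and Ctdp1, a phosphatase of the polymerase tail, had at most 43 and 30 counts in a library.

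Of the 13 Mediator genes 10 were tested, and 0 had an unadjusted edgeR p under 0.05, where all genes gave 8.3%. This too is a count over few genes. Means were higher in 4 and lower in 6 (median log2 fold change −0.015). Med10, a subunit of the middle module, measured 11.08, 10.73, 11.03 and 12.57 CPM in GFP libraries 1 to 4. In POLR2G livers it stood at 9.51 CPM in library 1, 10.1 in the unnumbered library, 10.5 in library 3 and 9.91 in library 4. The groups did not overlap, but the gap between GFP library 2 and POLR2G library 3 was narrow, and the log2 fold change of −0.18 (SE 0.106) had an edgeR adjusted p of 0.719. One other annotated gene holds a stretch at least 95% identical to a Med10 transcript, over up to 599 bases.

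The head subunits Med17 (−0.0082, SE 0.168) and Med6 (−0.10, SE 0.184) and the middle subunits Med4 (−0.034, SE 0.118) and Med21 (−0.022, SE 0.130) had overlapping groups and intervals within a 1.5-fold change. Med8, a head subunit, ranged from 3.90 to 8.64 CPM in the controls and from 5.16 to 9.66 CPM with POLR2G (0.24, SE 0.299). Med7, of the middle module, had the highest log2 fold change of the 50 in the fit of all 8 libraries, at 0.46 with an SE of 0.352, and 0.18 to 0.73 when 1 library was left out (0.18 without POLR2G library 4). Cdk8, the kinase of the module that Mediator can take on or shed, had the lowest in that fit, at −0.68 with an SE of 0.409 and 15 to 66 counts, and −0.92 to −0.43 when 1 library was left out (−0.43 without GFP library 4). Med12, which activates that kinase, ranged from 3.29 to 9.75 CPM in the controls and from 3.65 to 13.9 CPM with POLR2G (0.36, SE 0.440). Without the unnumbered POLR2G library its log2 fold change was −0.024. Med14, the scaffold of Mediator, had 6 to 37 counts. Med24 had 0 to 12 counts and Med27 0 to 4, and Med23 is listed at 0 in 7 libraries and at 56 counts in POLR2G library 4.

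Several genes had low or uneven estimated counts. Whether a gene's value holds all of its transcripts is not given in the sources used here, and levels and folds of genes with several transcripts are to be read with that limit. Polr2a, which every cell needs, is listed at 0, and so is Gtf2h4. Polr2m, which encodes an inhibitor bound to the polymerase, measured 37.1 CPM in GFP library 4 and 1.80 to 2.996 CPM in the other 3 control libraries. With POLR2G it stood at 0.338 CPM in library 1, 14.6 in the unnumbered library, 2.40 in library 3 and 26.3 in library 4. Taf1, the largest TFIID subunit gene, is listed at 0 in POLR2G library 4 and at 5.69 to 11.5 CPM in the other 7 libraries. These swings lie within a group and widen the error.

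The spread is set beside the number of annotated coding transcripts (GENCODE M21). All 9 genes with a row that could not be tested have 2 to 7 coding transcripts. The biological coefficient of variation, edgeR's estimate of the spread between libraries of a group, had a median of 0.138 (range 0.0845 to 0.232) in the 16 members with 1 coding transcript and 0.214 (0.0975 to 1.11) in the 34 tested members with several. Over all genes tested the medians were 0.158 and 0.204. The members with several also had a lower level, a median of 10.7 CPM against 23.3 CPM, and its part in the spread was not tested. All 6 members above 0.5, Polr2m, Ctdp1, Ercc2, Taf1, Tcea1 and Med14, have several. The 5 members at an unadjusted edgeR p under 0.05 all have 1 coding transcript, 5 of 16 (31.2%), while all genes with 1 coding transcript gave 9.15%. Among the members with several it was 0 of 34, and all such genes gave 7.95%. The groups did not overlap for 4 of the 16 (25%), against 6.76% of all genes with 1 coding transcript. These shares rest on few genes, and their distance from all genes was not tested. The 16 also had a higher median level than all genes with 1 coding transcript (23.3 against 15.4 CPM), so the 2 sets are not alike. Among the 16, means were higher in 4 and lower in 12, with a median log2 fold change of −0.096. All genes with 1 coding transcript gave 1485 higher and 1488 lower, with a median of −0.00035. As given above, the lower means of Gtf2f1, Gtf2b, Taf2 and Supt6 shrank or turned without GFP library 1. The distance of this split from all genes was not tested either.

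**Figure D4:**
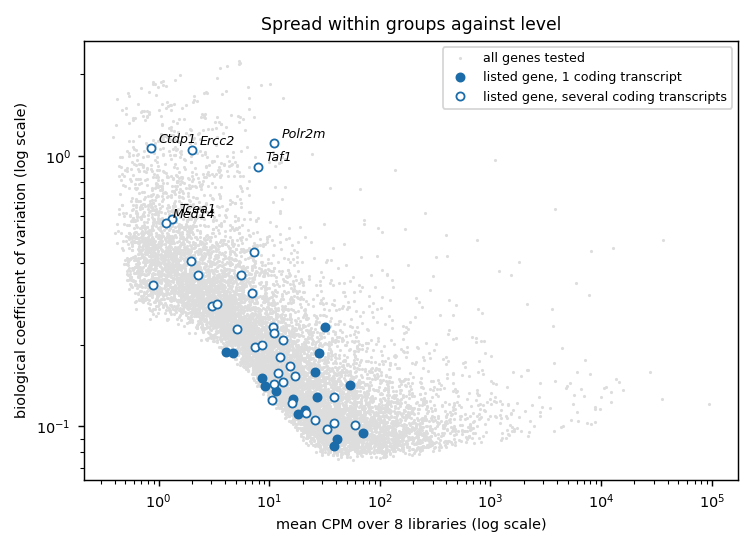
Biological coefficient of variation (y axis, log scale) against mean CPM over the 8 libraries (x axis, log scale) for all genes tested (grey), members with 1 coding transcript (filled) and members with several (open). The 6 named genes above 0.5 are all open points, while the filled points range from 0.0845 to 0.232.

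For the 16 members with 1 coding transcript, levels can be compared between genes as CPM per kilobase of that transcript, if the effective lengths used by the authors are close to the annotated ones. Some of the 16 also have annotated transcripts that are not coding, such as Taf2 with 6 transcripts in all. Their part in the counts was not tested. In the controls Gtf2b (19.9 ± 4.77 CPM per kilobase), Polr2l (19.8 ± 0.886), Polr2e (16.9 ± 1.77), Gtf2f1 (15.9 ± 3.71) and Polr2b (15.7 ± 1.33) were highest. Taf5 (1.45 ± 0.0526) and Taf7 (1.43 ± 0.0894) were lowest. Of the 15 pairs of neighbours in this order, 12 had overlapping ranges over the 4 control libraries. Gaps separated Polr2b from Supt16 (9.11 ± 0.559), Gtf2e1 (6.499 ± 0.521) from Taf10 (3.95 ± 0.478) and Nelfa (3.41 ± 0.192) from Taf5. With POLR2G Polr2l was first in the order at 26.9 ± 1.38 CPM per kilobase, followed by Polr2e at 19.5 ± 1.66.

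**Figure D5:**
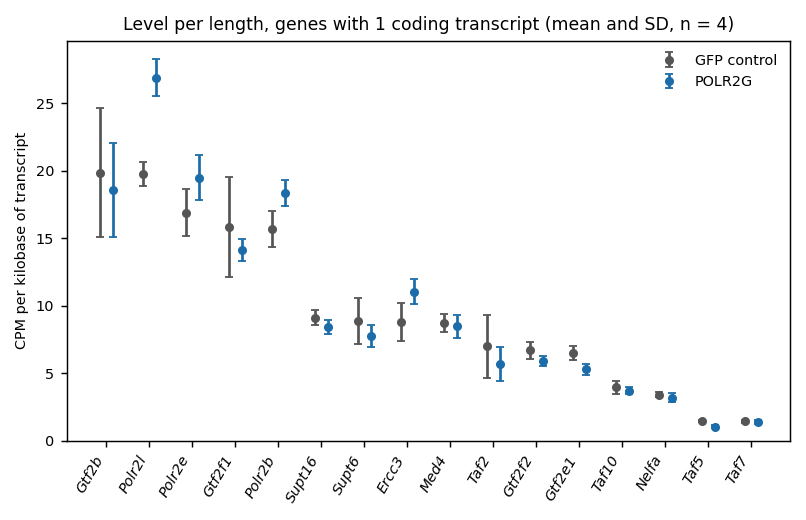
Level in CPM per kilobase of transcript (y axis, from 0) of the 16 members with 1 coding transcript, ordered by the GFP control mean, with mean and SD (n = 4) in GFP control (grey) and POLR2G (blue) libraries. Polr2l has means of 19.8 and 26.9, and Polr2b ends the group of 5 genes above 15 in the controls.

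Other genes of the pathway, in 6 lists with 82 tested genes including Polr2g, were also examined. Without Polr2g, 0 of 81 changed, 2 had an unadjusted edgeR p under 0.05 and the groups did not overlap for 3. All genes gave 0.0385%, 8.3% and 5.51%, in that order. The median log2 fold change was −0.020, with a higher mean in 37 and a lower one in 44. Ints13, an Integrator subunit, measured 6.72 ± 0.485 CPM in the controls and 4.72 ± 0.457 CPM with POLR2G (log2 fold change −0.51, SE 0.152, edgeR adjusted p = 0.388). Rtf1 (−0.20, SE 0.0676, adjusted p = 0.472) and Paf1 (−0.13, SE 0.0641, adjusted p = 0.646), which act in the PAF elongation complex, were lower in every POLR2G library as well. Also among the 2 smallest p of their own lists were Ints6 (−0.23, SE 0.136) and the Mediator genes Med22 (−0.17, SE 0.0872) and Med19 (−0.19, SE 0.0988). Among other TFIID and TFIIH genes they were Taf8 (−0.22, SE 0.132) and Taf9 (−0.38, SE 0.359). Genes were picked within each list, so this is not an order over all 81. None of these lists held a member past the threshold apart from Polr2g.

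The tissue matched its label: 10 of 10 hepatocyte markers were tested, and together they held 128523 to 149452 CPM in the controls and 120376 to 134653 CPM with POLR2G. Markers of Kupffer cells and macrophages summed to 196 to 305 and 229 to 413 CPM, sinusoidal endothelial markers to 81.1 to 111 and 88.1 to 111 CPM, and stellate cell markers to 46.3 to 86.1 and 48.1 to 76.1 CPM. Cholangiocyte markers (5.53 to 11.7 and 6.53 to 10.8 CPM), lymphocyte and neutrophil markers (up to 12.1 and 16.7 CPM) and proliferation markers (3.56 to 7.04 and 4.85 to 5.65 CPM) were low. No marker changed (edgeR adjusted p), where 0.0385% of all genes did. Means were lower for 8 of 10 hepatocyte markers (10 of 10 with scaling by totals) and higher for 5 of 5 tested Kupffer cell and macrophage, 4 of 5 stellate cell and 3 of 4 endothelial markers (5, 2 and 2 with scaling by totals). Their part in the values above was not tested. In bulk liver, fewer cells of a type and less RNA per cell cannot be told apart. Among libraries, GFP library 1 was the highest of the 8 for 12 of the 50 members, and GFP library 3 and POLR2G library 1 were the lowest for 11 each.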

How the data were processed

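Per the labels' protocols, poly-A RNA was isolated from frozen liver and its strand was kept in the libraries. The authors deposited 1 table of estimated counts per Ensembl gene, whole numbers that are not normalized. Salmon 1.2.1 and GRCm38 (mm10) are named in the submitters' processing notes with no role, and how transcripts were combined into genes is not given in the sources used here. Symbols, coordinates and coding transcripts are from GENCODE M21 on GRCm38, which named 20817 of 20894 genes. Columns were assigned by library name.

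The main test was edgeR 4.0.16 in R 4.3.3 (quasi-likelihood, TMM, filterByExpr with a minimum count of 10 and total of 15, two-sided, group as the only term) over 10390 genes, with p adjusted by Benjamini-Hochberg and calls made at 0.05. SE is the log2 fold change divided by the square root of F. Alternatives included DESeq2 1.42.0 and limma 3.58.1. Steps were tested on simulated data. The 12 library pairs within groups differed beyond sampling noise (10.9 to 104 chi-square units for each degree of freedom). Members with full statistics are those past an unadjusted p of 0.05 or with groups apart. Lists of other pathway genes give the 2 with the smallest p, apart from 1 that is not reported here. Members and lists were chosen with earlier results of these data known.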

Additional observations from a re-analysis of the deposited data

Results flagged for a closer look

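In 100 groups of 4 libraries (50 genes by 2 groups), 6 held a library that stood so far from its nearest neighbour, relative to the group's range, that Dixon's test at 95% marks it, and chance gives about 5. These were Polr2m in GFP library 4 (37.1 CPM), Taf2 in GFP library 1 (52.7 CPM), Nelfa in GFP library 3 (8.06 CPM) and Med21 in GFP library 2 (16.9 CPM). In the POLR2G libraries they were Gtf2f1 in the unnumbered library (26.3 CPM) and Ell in library 1 (49.6 CPM). No library held more than 1 of them.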

How the results depend on the processing

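Across 18 alternatives 24 of the 50 tested members, none of them called, turned their sign in at least 1. None of the 5 members at an unadjusted p under 0.05 did so. They were picked from these same libraries for a large change against their error, so that outcome is no support for them. No member passed in the main test, and 1 (Polr2l) did with DESeq2 and 1 (Polr2l) when only genes with 1 coding transcript were fitted. In that last fit 3 of the 2973 genes passed, and 11.2% of the 2973 had an unadjusted edgeR p under 0.05. The adjusted p of Polr2l ranged from 4.32e-05 to 0.517 over the alternatives. The median log2 fold change of the members was −0.098 when libraries were scaled by totals only and −0.102 among genes with 1 coding transcript. Over all genes, 4 passed in the main test, 140 with DESeq2, 1 with library totals only, and 1 to 6 when 1 library was left out (1 without POLR2G library 1 or 4, 2 without the unnumbered POLR2G library or GFP library 2). Members with groups apart numbered 5 to 8 when 1 library was left out, with 8 without GFP library 3. Smaller groups are more easily apart, and the share over all genes was not computed for these fits, so the rise is no result.

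Numbers 1, 3 and 4 are shared by the groups, but same-numbered libraries did not deviate together (correlations −0.025 to 0.064), and 1 of 3 control libraries correlated best with its own number. With the replicate number as a block, in 6 libraries, 2 genes passed. In that fit 2 of 50 members (Med7, Polr2l) had an unadjusted p under 0.05, and 6.95% of all genes did. The same 6 libraries without the block gave 1 gene and 2 members (Mnat1, Polr2l), where 7.43% of all genes had an unadjusted p under 0.05. Polr2b, Ercc3, Gtf2e1 and Taf5 were thus above 0.05 in both. The 9 untested genes had too few counts or none, and the cause was not tested.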
